A study of Mus musculus with 12 samples.

Results

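The Tdpoz genes of the mouse were followed through both experiments of the series. Members were all genes whose symbol is Tdpoz followed by a number, with or without a pseudogene suffix. The rule found 10 genes, Tdpoz1 to Tdpoz9 and the pseudogene Tdpoz9-ps1, of 17866 genes listed in the knockdown table and 19390 in the pulldown table, and all 10 were listed in both. In the knockdown experiment, RNA was sequenced from 2-cell embryos of CF1 mice in 2 control and 2 knockdown libraries (replicates A and B; pairs of values give A first, then B). Controls are labelled wild type and received the RNA-cutting enzyme Cas13d without a guide, while knockdown embryos (Eif1ad3_KD) received it with a reagent against Eif1ad3 and its variants. The design text names guide RNA with mRNA of RfxCas13d given at the 1-cell stage, and the sample protocol names morpholino oligos with Cas13d protein given to oocytes. In the pulldown experiment, zygotes received 200 ng/uL of mRNA that encodes Eif1ad3 with a His tag (Eif1ad3_OE), and RNA was recovered from 2-cell lysates of 200 cells per replicate with anti-His beads (2 libraries) or with IgG beads as the background (2 libraries). Nothing in the labels says that replicates came from separate pools of embryos, so p-values measure the spread between these libraries, which may be technical.

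Tdpoz proteins carry a TRAF-type (MATH) domain and a BTB/POZ domain. Their closest well-studied relative, Spop, uses the first domain to hold a substrate and the second to bind the scaffold CUL3, so that the substrate is ubiquitinated. In the mouse, Tdpoz genes are known as transcripts that appear around the 2-cell stage, when the embryo's own genome is switched on. The members are close copies of one another, and how reads that map to several copies were counted is not given in the sources used here, so the values of single members are uncertain.

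The RefSeq gene table (assembly GRCm38.p6, used for names and gene order only) placed 8 of the 10 members on chromosome 3 and held no entry for Tdpoz6 and Tdpoz9-ps1. Tdpoz8 was separated from Tdpoz2 by 20 other genes, among them the skin genes Flg, Flg2, Hrnr and Tchh. The other 7 placed members followed one another as Tdpoz2, Tdpoz1, Tdpoz4, Tdpoz3, Tdpoz5, Tdpoz9 and Tdpoz7, with pseudogenes between some of them, and the Spop-like genes Spopfm2, Spopfm3 and Spopfm1 lay beyond Tdpoz7.

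Upstream sequence from RefSeq (GRCm38.p6) was matched by symbol for 6 members, with 7 annotated starts. The 250 bases before the start are printed 5′ to 3′ for 6 of these starts, because they show which members share their upstream sequence and because members with near-identical windows are compared below. Capitals mark TATATAA, which resembles the box bound by the general transcription machinery, in the first 3 windows, and in the others the 14-base run that is the longest shared by all windows without TATATAA.
Tdpoz1 (chr3:93676284-93676533, - strand): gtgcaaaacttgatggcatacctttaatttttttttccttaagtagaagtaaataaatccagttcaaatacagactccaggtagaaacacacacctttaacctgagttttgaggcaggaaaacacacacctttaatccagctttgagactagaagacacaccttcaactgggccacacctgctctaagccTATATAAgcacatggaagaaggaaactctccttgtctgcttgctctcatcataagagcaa
Tdpoz9 (chr3:94054886-94055135, - strand): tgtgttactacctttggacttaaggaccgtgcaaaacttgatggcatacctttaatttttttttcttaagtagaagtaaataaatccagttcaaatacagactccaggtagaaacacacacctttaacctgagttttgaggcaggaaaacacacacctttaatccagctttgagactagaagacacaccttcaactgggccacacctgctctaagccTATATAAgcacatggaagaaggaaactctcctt
Tdpoz8, first annotated start (chr3:93068573-93068822, + strand): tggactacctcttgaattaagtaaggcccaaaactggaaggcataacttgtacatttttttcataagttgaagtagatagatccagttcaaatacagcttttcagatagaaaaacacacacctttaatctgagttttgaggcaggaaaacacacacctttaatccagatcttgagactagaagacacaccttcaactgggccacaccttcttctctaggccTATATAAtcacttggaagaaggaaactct
Tdpoz4 (chr3:93796148-93796397, + strand): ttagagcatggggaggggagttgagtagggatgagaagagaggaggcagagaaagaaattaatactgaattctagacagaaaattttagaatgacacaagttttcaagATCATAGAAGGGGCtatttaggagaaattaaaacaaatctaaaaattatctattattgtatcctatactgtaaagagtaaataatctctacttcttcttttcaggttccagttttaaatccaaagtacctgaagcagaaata
Tdpoz5 (chr3:93961315-93961564, - strand): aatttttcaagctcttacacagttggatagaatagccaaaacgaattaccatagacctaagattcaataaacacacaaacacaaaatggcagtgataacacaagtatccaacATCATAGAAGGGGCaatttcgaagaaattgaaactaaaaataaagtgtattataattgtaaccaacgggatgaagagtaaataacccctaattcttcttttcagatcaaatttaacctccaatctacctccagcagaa
Tdpoz7 (chr3:94072645-94072894, - strand): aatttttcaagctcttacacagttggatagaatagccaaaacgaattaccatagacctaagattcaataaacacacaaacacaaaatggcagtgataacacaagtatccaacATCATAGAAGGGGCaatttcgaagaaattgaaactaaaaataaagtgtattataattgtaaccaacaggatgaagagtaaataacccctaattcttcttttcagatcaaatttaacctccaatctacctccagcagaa

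The windows fell into 3 kinds. Tdpoz1 and Tdpoz9 were identical at 222 of 223 aligned columns, with 1 gap column, and the first start of Tdpoz8 was 86.3% identical to Tdpoz1 and 84.9% to Tdpoz9. Tdpoz5 and Tdpoz7 differed at 1 of 250 positions. Tdpoz4 was 94.7% identical to the window of the second Tdpoz8 start and 65.9% identical to Tdpoz5. The first and second start of Tdpoz8 thus fell into different kinds. The kinds describe windows before annotated starts, and whether transcription begins at these starts was not tested. TATATAA stood on the gene's strand in 3 of the 7 windows (Tdpoz1, Tdpoz9 and the first start of Tdpoz8), with its first base 60, 33 and 29 bases before the start, and 3.04% of all 32851 windows of that length hold it on either strand. TAATCC, the core bound by bicoid-type homeodomains, stood in the same 3 windows, against 6.25% of all windows on either strand. The 14-base run stood on the gene's strand in the other 4 windows and in 0.0122% of all windows on either strand, a share made up by these 4 windows alone. The run was read from these windows themselves, so its presence there is no finding. AAGGTCA, a nuclear receptor site, was in none of the 7 windows and in 4.08% of all windows.

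Libraries of the knockdown table held 18173916 to 27902514 reads and those of the pulldown held 4678563 to 8364126, and 3 reads corresponded to at most 0.641 CPM, the reads of a gene scaled to a common library total. The targeted gene Eif1ad3 was at 839 and 663 CPM in controls and at 277 and 377 CPM after knockdown (log2 fold change -1.21, standard error (SE) 0.33, adjusted p 0.859 in limma). Of 16 markers of the 2-cell embryo, 15 were at 1 CPM or more in each of the 4 libraries of the knockdown table, with summed levels of 5604 to 8837 CPM. Markers of the blastocyst summed to 32.4 to 42 CPM and markers of cumulus and granulosa cells to 20.3 to 35.9 CPM. In bulk RNA, fewer cells of a type and less RNA per cell cannot be told apart.

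In control embryos every Tdpoz gene was detected, and together they held 998 CPM in replicate A and 1044 CPM in replicate B (24963 and 25999 reads). In knockdown embryos the sum was 668 CPM in replicate A and 748 CPM in replicate B (18636 and 13588 reads). Both knockdown sums lay below both control sums, with means of 708 ± 56.4 CPM after knockdown and 1021 ± 32.6 CPM in controls (SD, n = 2 each). The knockdown mean was 69.3% of that in controls. With 2 libraries against 2, an exact permutation test cannot give a two-sided p below 0.333, so the sum is given as a description.

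The members were then read from a limma fit over all 13332 genes at 1 CPM or more in at least 2 libraries, on log2(CPM + 1), with Benjamini-Hochberg adjustment over those genes. All 10 members were tested. None passed an adjusted p of 0.05, where 0% of all genes did, and their adjusted p ranged from 0.859 to 0.998. At an unadjusted p under 0.05, 1 member was lower (Tdpoz4), against 2.5% of all genes. By edgeR and by DESeq2 on the recovered reads, 0 members passed, against 0% and 0.113% of all genes. The log2 fold change was negative for 9 of 10 members and for 48.7% of all genes. Tdpoz1 and Tdpoz9 were close to 0, and in edgeR and in DESeq2 they were above it, which left 7 of 10 members negative. Its median was -0.56 over the members and 0.02 over all genes. In 4 members (Tdpoz3, Tdpoz4, Tdpoz7 and Tdpoz8), both knockdown libraries lay below both controls, an arrangement found in 18.4% of all genes, and no member had both above both controls (18.1% of all genes).

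**Figure D1:**
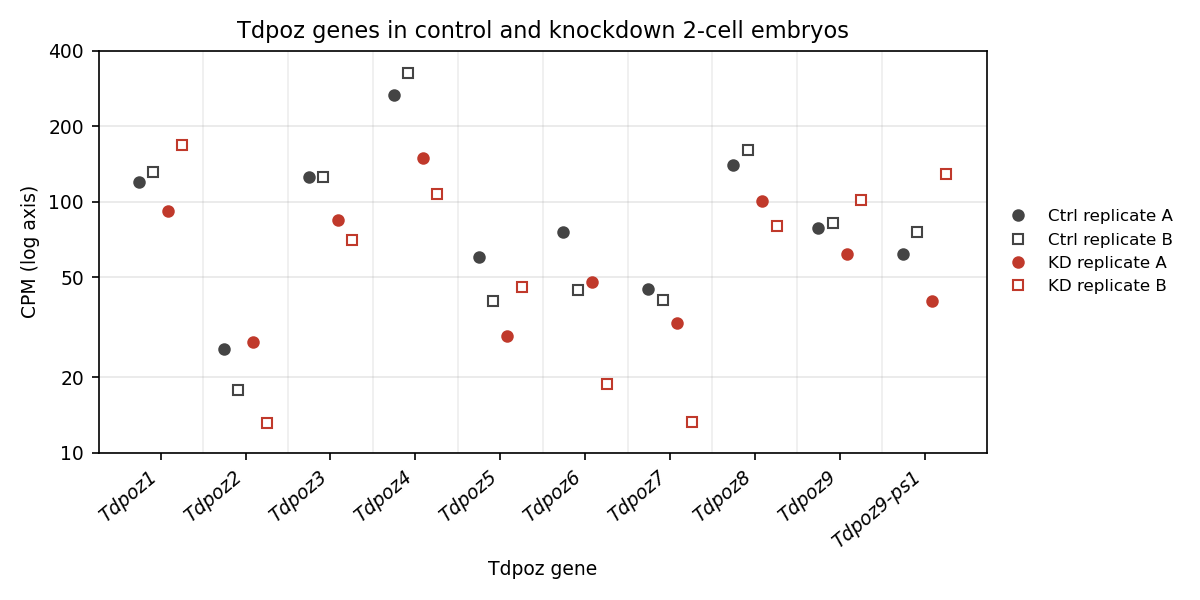
CPM of each Tdpoz gene (log axis) in the 4 libraries of the knockdown experiment, with filled circles for replicate A, open squares for replicate B, grey for control and red for knockdown. Tdpoz3, Tdpoz4, Tdpoz7 and Tdpoz8 have both knockdown points below both controls, while Tdpoz1, Tdpoz9 and Tdpoz9-ps1 have knockdown replicate A below and replicate B above them.

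Tdpoz4 took the largest share of the family's reads in controls, 26.7% and 31.2%. It was at 266 and 326 CPM in controls and at 149.9 and 107 CPM after knockdown. Both knockdown libraries were low, at 50.6% and 36.1% of the control mean, and the groups did not overlap. Its log2 fold change of -1.21 (SE 0.34) was the lowest of the family and at percentile 1.55 of all genes, and its limma p of 0.00771 became an adjusted p of 0.859.

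Tdpoz8, the member that lies apart from the others, was at 139.8 and 161 CPM in controls and at 101 and 80.4 CPM after knockdown. The groups did not overlap, and the log2 fold change was -0.73 (SE 0.34, adjusted p 0.859 in limma). Tdpoz3 was at 125 CPM in both controls and at 84.8 and 70.1 CPM after knockdown, again without overlap. Its log2 fold change was -0.69 (SE 0.34, adjusted p 0.859).

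Tdpoz7 was at 44.9 and 40.6 CPM in controls and at 33 and 13.3 CPM after knockdown. Here the knockdown libraries stood apart from each other more than the controls did, at 77.2% and 31% of the control mean. Tdpoz6 differed between replicates in both groups, at 75.6 and 44.4 CPM in controls and 48 and 18.7 CPM after knockdown, and its groups overlapped. The log2 fold changes were -0.99 (SE 0.51) for Tdpoz7 and -0.92 (SE 0.54) for Tdpoz6, each with an adjusted p of 0.859.

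Tdpoz1 was at 119.8 and 131 CPM in controls and at 91.9 and 168 CPM after knockdown. Tdpoz9, whose upstream window matches that of Tdpoz1 at all but 1 aligned column, was at 78.9 and 82.4 CPM in controls and at 62.1 and 102 CPM after knockdown. Tdpoz9-ps1 was at 61.9 and 75.6 CPM in controls and at 40.2 and 129 CPM after knockdown. In all 3 genes replicate A was below both controls and replicate B above both. Their log2 fold changes were -0.01 (SE 0.39), -0.02 (SE 0.39) and 0.08 (SE 0.55), and leaving out 1 knockdown library turned them to between -0.75 and 0.90.

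Tdpoz5 was at 60.3 and 40.3 CPM in controls and at 29.1 and 45.8 CPM after knockdown. Tdpoz5 and Tdpoz7 have upstream windows that differ at 1 position, and their knockdown replicates went opposite ways, with a log2 difference of replicate B minus A of 0.64 for Tdpoz5 and -1.26 for Tdpoz7. Tdpoz2, the member with the fewest reads, was at 26 and 17.7 CPM in controls and at 27.6 and 13.1 CPM after knockdown, and its groups overlapped. Log2 fold changes were -0.42 (SE 0.44) for Tdpoz5 and -0.16 (SE 0.52) for Tdpoz2. Without knockdown replicate A they were -0.11 and -0.67, and without replicate B -0.74 and 0.34, so that Tdpoz2 changed sign, as it did without control replicate A (0.10).

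**Figure D2:**
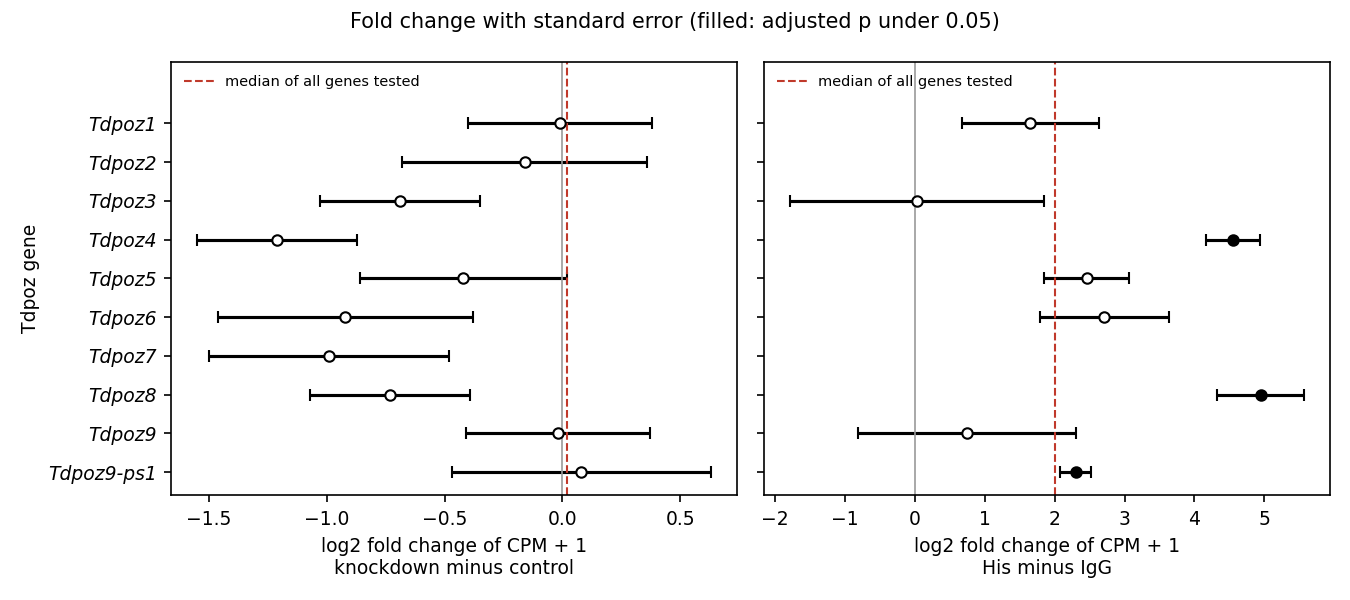
Log2 fold change on the log2(CPM + 1) scale with its standard error for each Tdpoz gene, knockdown minus control on the left and His minus IgG on the right. Filled points have an adjusted p under 0.05 in limma, and the dashed line is the median of all genes tested. On the left no point is filled and the medians are -0.56 for the family and 0.02 for all genes. On the right Tdpoz4, Tdpoz8 and Tdpoz9-ps1 are filled, and Tdpoz2 and Tdpoz7 have no point because they were too low to be tested.

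The composition of the family's RNA differed between the knockdown libraries. Tdpoz4 held 22.4% of the family's CPM in knockdown replicate A and 14.3% in replicate B, while Tdpoz1 held 13.8% and 22.5% and Tdpoz9-ps1 6.03% and 17.2%. In the controls Tdpoz1 held 12% and 12.5% and Tdpoz9-ps1 6.2% and 7.23%. Knockdown replicate B exceeded replicate A in 4 members (Tdpoz1, Tdpoz5, Tdpoz9 and Tdpoz9-ps1) and was below it in 6. The median log2 difference of replicate B minus A over all genes was -0.30, with quartiles of -0.97 and 0.35. The knockdown replicates also differed in oocyte markers, whose sum over 12 genes was 15278 CPM in knockdown replicate A, 6888 CPM in replicate B and 7175 and 7029 CPM in the controls. In replicate B the sum covered changes both ways. Oosp1 was at 2475 CPM there (2303 and 1898 in controls) and Bmp15 at 1055 (845 and 728), both above the controls. Btg4 was at 2911 CPM, between its controls (2721 and 3198). Most other oocyte markers were below both controls in replicate B, among them Gdf9 at 91.2 CPM (345 and 283). The part of these marker differences in the Tdpoz values was not tested.

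Without knockdown replicate A, 5 members passed in limma as lower (Tdpoz3, Tdpoz4, Tdpoz6, Tdpoz7 and Tdpoz8; 9% of all genes did) and 1 as higher (Tdpoz9-ps1; 6.1% of all genes). Without knockdown replicate B, 1 member passed, Tdpoz4, as lower (0.913% of all genes). In both fits the single knockdown library is assumed to vary like the controls. Members that were below both controls in the full set had to keep a negative fold change in each of these fits, so only its size can vary. It lay between -1.45 and -0.97 for Tdpoz4, -0.89 and -0.57 for Tdpoz8 and -0.82 and -0.55 for Tdpoz3. Tdpoz7 varied most of these, at -1.62 without knockdown replicate A and -0.36 without replicate B.

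Neighbours within the stretch from Tdpoz2 to Spopfm1 gave lower values in knockdown embryos as well. In the RefSeq order this stretch holds 18 genes that are not members, of which 7 were in the knockdown table, and all 7 were tested. Both knockdown libraries were below both controls in all 7, against 18.4% of all genes, with log2 fold changes from -1.29 to -0.48, and none passed (adjusted p 0.859 to 0.865 in limma). The pseudogene Gm5543 was at 886 and 947 CPM in controls and 334 and 419 CPM after knockdown. Spopfm3, a pseudogene related to Spop, was at 208 and 312 CPM in controls and at 139 and 171 CPM after knockdown, and Spopfm1 was at 162 and 185 CPM and then 145 and 77.4 CPM. Gm5541, a pseudogene just outside this stretch on the other side of Tdpoz2, was at 172 and 267 CPM in controls and at 122 and 83.9 CPM after knockdown. Tchh, the other gene tested between Tdpoz8 and Tdpoz2, was at 15.2 and 27.2 CPM in controls and at 27.1 and 75.9 CPM after knockdown. Its log2 fold change was positive, at 1.12 (SE 0.58, limma adjusted p 0.859). These neighbours were named after their values were seen, and whether the pseudogenes share reads with the family through multiple mapping was not tested.

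**Figure D3:**
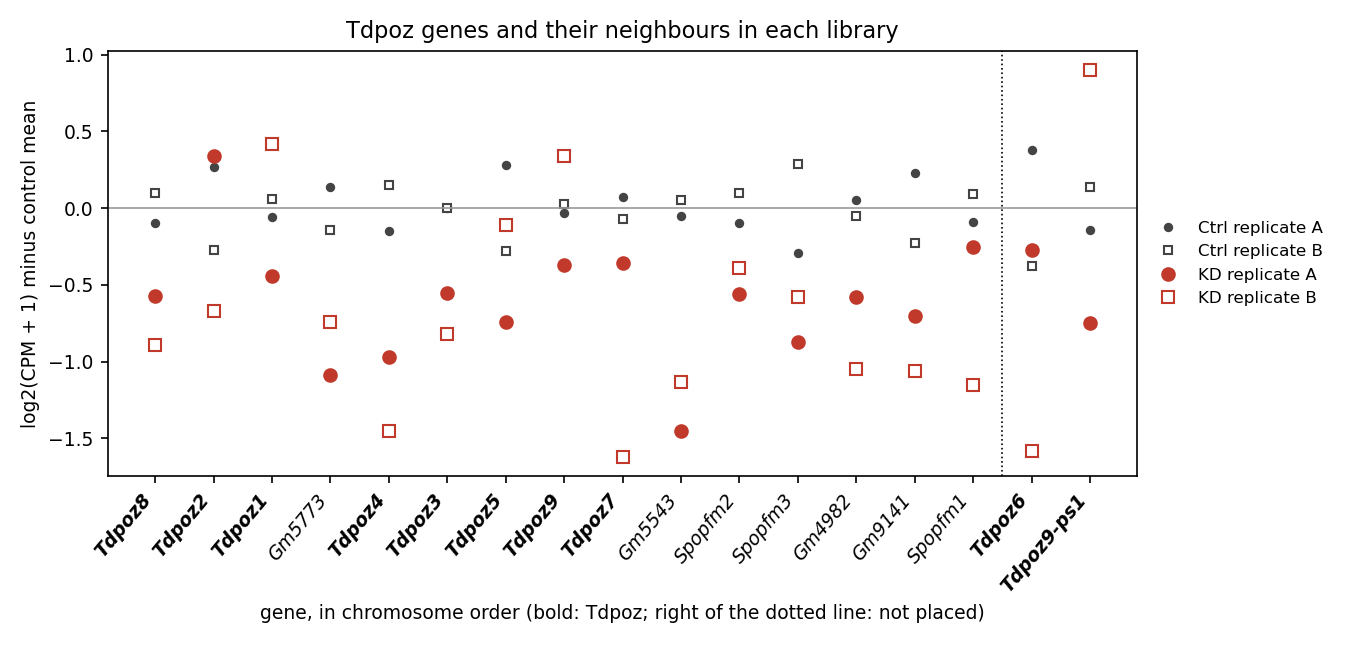
Log2(CPM + 1) of each library minus the mean of the 2 controls, for the Tdpoz genes (bold) and the 7 tested neighbours in chromosome order, with Tdpoz6 and Tdpoz9-ps1 right of the dotted line because they were not placed. All 7 neighbours have both knockdown points (red) below both controls (grey), whereas knockdown replicate B (open red squares) of Tdpoz1, Tdpoz9 and Tdpoz9-ps1 lies above them.

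The 16 markers of the 2-cell embryo were lower in sum as well. They held 8837 and 7801 CPM in controls and 5769 and 5604 CPM after knockdown, and 12 of the 15 tested were lower, with a median log2 fold change of -0.34 and none passing. The part of what these markers share in the Tdpoz values was not tested. Obox6 and Obox3, homeobox genes of that stage, were at 2121 and 2144 CPM and at 1385 and 1298 CPM in controls, and at 1320.1 and 1226 CPM and 902 and 1236 CPM after knockdown. Usp17lb, a deubiquitinase of the 2-cell stage, was at 1841 and 1196 CPM in controls and at 719 and 554 CPM after knockdown. Zfp352, a zinc finger gene of that stage, was at 811 and 871 CPM and then 735 and 827 CPM.

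Genes of the ubiquitin ligase in which Spop works were compared next. Among 5 MATH-BTB relatives of the family, 4 were lower and Spopl was higher, with a median log2 fold change of -0.48. Spop itself was at 104 and 103 CPM in controls and at 116 and 63.5 CPM after knockdown (log2 fold change -0.27, SE 0.40). Among 25 genes of the CUL3 ligase core, its activation by NEDD8 and the COP9 signalosome that reverses it, 15 were higher and 10 lower, with a median of 0.23. Cul3, the scaffold, was at 1067 and 1095 CPM in controls and 773 and 1664 CPM after knockdown, on both sides of the controls. Rbx1, the RING subunit that recruits the ubiquitin-loaded enzyme, was at 386 and 362 CPM and then 474 and 416 CPM. Of 35 tested genes for other BTB adaptors of CUL3, 21 were higher and 14 lower, with a median of 0.31. The one with the most reads was Kbtbd8, at 652 and 609 CPM in controls and 935 and 1029.8 CPM after knockdown (log2 fold change 0.64, SE 0.29). None of these genes passed in limma (adjusted p 0.859 or more).

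The pulldown asked how much Tdpoz RNA came down with the tagged Eif1ad3 protein. The family summed to 102 and 110.3 CPM in His (852 and 873 reads), and to 1.01 and 44.2 CPM in IgG (6 and 207 reads). The IgG libraries thus differed from each other, and the library with the higher sum owed nearly all of it to Tdpoz1, Tdpoz3 and Tdpoz9. Detection was sparse throughout the IgG libraries, where 12574 and 12217 of 19390 genes had no read, against 5146 and 5313 in His. Eif1ad3 itself was at 80.3 and 83.6 CPM in His and 1.35 and 30.8 CPM in IgG (adjusted p 0.252 in limma). The 2-cell markers summed to 1642 and 1807 CPM in His and 722 and 772 CPM in IgG, the oocyte markers to 15179 and 15263 CPM and to 4142 and 5499 CPM, the blastocyst markers to 253 and 287 CPM and to 855 and 38.7 CPM, and the cumulus and granulosa markers to 54 and 54.6 CPM and to 5.91 and 0 CPM. Gata4 made up 739 CPM of the blastocyst sum in IgG replicate A. In limma, 3 of 5 tested blastocyst, 4 of 12 oocyte and 1 of 2 cumulus and granulosa markers passed as higher in His. Of all genes tested, 35.7% did. The 3 blastocyst markers, Zp1 of the oocyte markers and Tnfaip6 of the cumulus and granulosa markers were under 1 CPM in both IgG libraries. They entered the test through His alone, so that they had to differ. The part of all these markers in the Tdpoz values was not tested. In IgG replicate A, 9 of 10 members had no read, and in replicate B 6 had none, which at 3 reads allows up to 0.506 and 0.641 CPM.

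Of the 10 members, 8 reached 1 CPM in at least 2 of the 4 libraries and were tested among 11232 genes, and Tdpoz2 and Tdpoz7 were not. Tdpoz4, Tdpoz5, Tdpoz6, Tdpoz8 and Tdpoz9-ps1 passed this filter through the His libraries alone, so that they had to differ from IgG. Both IgG libraries had no read for 4 of the 8 tested members and for 28.2% of all genes tested, nor for the untested Tdpoz2 and Tdpoz7. All 8 tested members had a positive log2 fold change, as did 78.5% of all genes, with medians of 2.38 over the members and 2.01 over all genes. In edgeR and in DESeq2, 6 of the 8 were positive. In 6 of the 8 tested members both His libraries lay above both IgG libraries, as in 54.1% of all genes tested. In limma, 3 of the 8 were higher in His at an adjusted p under 0.05 (Tdpoz4, Tdpoz8 and Tdpoz9-ps1), a share near the 35.7% of all genes that were. In edgeR on the recovered reads, 0 members and 0% of all genes passed, with 5 members and 40.9% of all genes at an unadjusted p under 0.05, and in DESeq2 5 members and 49.1% of all genes passed. Quantile normalization, which moved the all-gene median to -0.08 (median-of-ratios scaling gave 1.77), left 0 members and 0% of all genes passing.

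**Figure D4:**
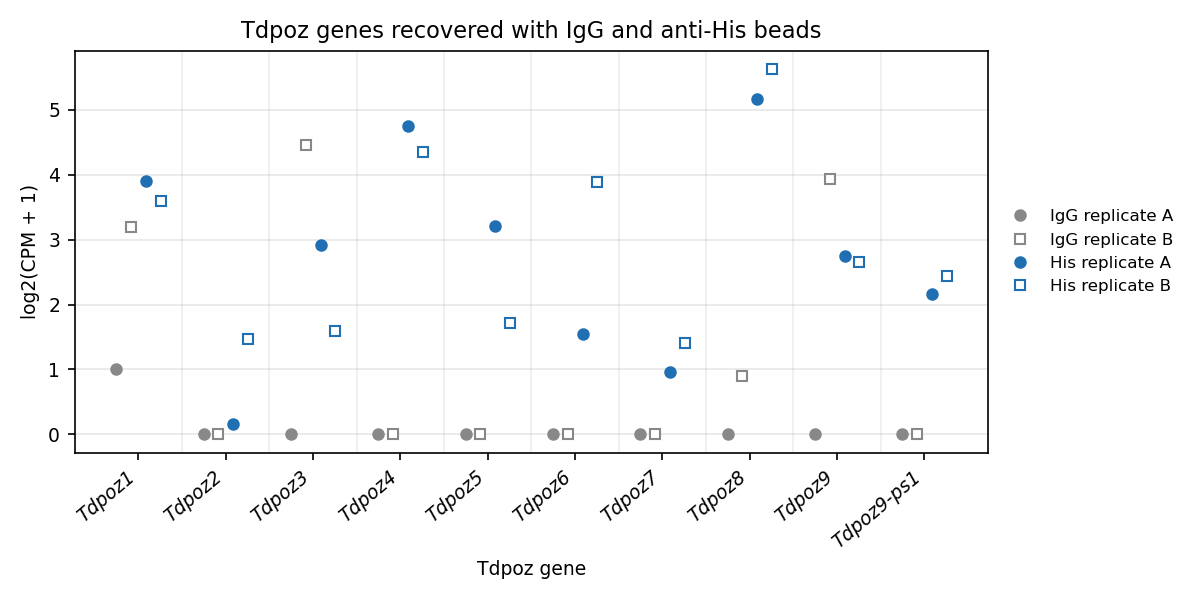
Log2(CPM + 1) of each Tdpoz gene in the 4 pulldown libraries, with filled circles for replicate A, open squares for replicate B, grey for IgG and blue for His. Points at 0 have no read, which holds for both IgG libraries in 6 genes. Tdpoz4 and Tdpoz8 have both His points well above IgG, and Tdpoz3 and Tdpoz9 have IgG replicate B above both His points.

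Tdpoz8 had the most reads of the members in His, at 34.9 and 48.5 CPM in replicates A and B (292 and 384 reads), against 0 and 0.855 CPM in IgG (0 and 4 reads). The groups did not overlap, and the log2 fold change was 4.95 (SE 0.62, adjusted p 0.0128 in limma). It held 34.3% and 44% of the family's CPM in His, and 14% and 15.5% in the control embryos of the separately normalized knockdown table. Those embryos had another injection and no bead step, and input RNA was not used. Whether Tdpoz8 was recovered more readily than other members was not tested.

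Tdpoz4 was at 25.9 and 19.5 CPM in His (217 and 154 reads) and had no read in either IgG library, so that its mean of 22.7 ± 4.59 CPM was at least 39.6-fold higher than a floor of 3 reads per IgG library. Its adjusted p was 0.00997 in limma and 0.0547 in edgeR. Tdpoz9-ps1 was at 3.47 and 4.42 CPM in His (29 and 35 reads), also with no IgG read, at least 6.87-fold above that floor (adjusted p 0.00997 in limma). With quantile normalization its log2 fold change turned to -0.21, those of Tdpoz4 and Tdpoz8 fell short of the threshold at 1.40 and 2.65, and Tdpoz5 turned to -0.11.

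Tdpoz5 and Tdpoz6 had no IgG read and differed between the His replicates. Tdpoz5 was at 8.25 and 2.27 CPM in His (adjusted p 0.0572 in limma), and Tdpoz6 at 1.91 and 13.8 CPM (0.116). Tdpoz7 was at 0.956 and 1.64 CPM (8 and 13 reads) and Tdpoz2 at 0.12 and 1.77 CPM (1 and 14 reads), close to the floor of IgG at 0.574 CPM.

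The other 3 members had reads in IgG. Tdpoz1 was at 14 and 11.1 CPM in His and at 1.01 and 8.12 CPM in IgG, and its groups did not overlap (log2 fold change 1.65, SE 0.98, adjusted p 0.321 in limma). That value was 0.56 without IgG replicate A and 2.74 without IgG replicate B. Tdpoz3 was at 6.58 and 2.02 CPM in His and at 0 and 20.9 CPM in IgG. Tdpoz9 was at 5.74 and 5.3 CPM in His and at 0 and 14.3 CPM in IgG. For Tdpoz3 and Tdpoz9 the IgG replicates lay on either side of both His libraries, and the sign of the log2 fold change (0.03, SE 1.82, and 0.74, SE 1.56) depended on which IgG library was left out. Without IgG replicate B the values were 2.26 and 2.70, and without IgG replicate A they were -2.20 and -1.23. Quantile normalization turned Tdpoz1, Tdpoz3 and Tdpoz9 to -1.57, -1.86 and -1.47, and edgeR gave -1.18 for Tdpoz3 and -0.27 for Tdpoz9. Without IgG replicate B, Tdpoz1 and Tdpoz9 also passed (adjusted p 0.0179 and 0.0236), and 55.3% of all genes were then called higher in His. Without IgG replicate A, Tdpoz4, Tdpoz8 and Tdpoz9-ps1 passed, beside 51.1% of all genes. In these fits the single IgG library is assumed to vary like the His libraries, whereas the IgG replicates correlated at 0.465 and the His replicates at 0.895 over the genes tested, so these p-values are likely too small. Without His replicate A or B, 3 members could be tested and none passed, where 0.0593% and 0.0592% of all genes were called higher.

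Among the relatives, Spop was at 39.8 and 108 CPM in His and at 0.506 and 0.427 CPM in IgG (log2 fold change 5.51, SE 0.79, adjusted p 0.0164 in limma). Spopfm1 and Spopfm3 passed as well (0.0174 and 0.0396), with 0 reads in both IgG libraries, and Spopfm2 and Spopl did not. Spop, Spopfm1 and Spopfm3 reached the filter through the His libraries alone, so that they too had to differ from IgG. Of 23 tested genes of the CUL3 ligase core, 4 passed as higher in His, namely Cops5, Uba3, Cops4 and Dcun1d1, and none as lower. Cops5 (no IgG read) and Uba3 (0.338 and 0.427 CPM in IgG) entered the test through His alone. Of 31 tested BTB adaptors, 8 passed as higher, among them Klhl22, Kbtbd4, Klhl28 and Btbd9, which had no IgG read. Of the 8, 7 entered the test through His alone. Klhl25 passed as lower, at 66.1 and 77.3 CPM in His and 594 and 335 CPM in IgG, where 0.917% of all genes were called lower. The shares called higher in these lists stand beside 35.7% of all genes. Of the 15 tested 2-cell markers, 9 passed as higher in His. All of the 9 except Usp17lb and Tcstv1 were under 1 CPM in both IgG libraries. They entered the test through His alone, so that they had to differ from IgG.

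Genes with a pattern like the family's sum were ranked by Pearson's correlation of log2(CPM + 1), centred within each table, over the 8 libraries and 5320 genes at a mean of 10 CPM or more in both tables. The 5 highest were Rbm8a, a component of the exon junction complex (r = 0.999), Zfp622 (0.997), Capn7, Morf4l1 and Morf4l1b (0.995 each). Morf4l1 and Morf4l1b had the same rounded CPM in each of the 8 libraries, so they count as a single pattern. Rbm8a was at 811 and 853 CPM in controls, 599 and 675 CPM after knockdown, 169 and 206 CPM in His and 1.35 and 72.5 CPM in IgG. The correlation was over 0.9 for 653 of these genes, and all points share the large gap between the IgG replicates.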

How the data were processed

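The authors deposited CPM per gene in 2 separately normalized tables. Per the submitters' processing notes, Trim Galore 0.6.7, HISAT2 2.2.1, featureCounts 2.0.1, edgeR and build GRCm39 were used. Smart-seq2 libraries carry no molecular identifiers (kit named per the labels' protocols), so floors of 3 reads cover counting error only. All deposited CPM values were whole multiples (tolerance 0.01 reads) of 1 read, for 100% of values, so reads and totals were recovered. The 4 value columns whose names do not decide between input and total RNA were not used, and the comparisons that need them were not run. Genes at 1 CPM or more in 2 libraries entered limma 3.58.1 (R 4.3.3) as log2(CPM + 1) (trend, two-sided, Benjamini-Hochberg, threshold 0.05), which understates changes of low genes. Alternatives included edgeR 4.0.16 and DESeq2 1.42.0 on recovered reads. In simulated reads every gene had a common spread estimated from these libraries (dispersion 0.272 for the knockdown and 1.55 for the pulldown). There limma recovered 8% of log2 changes of 2 and 89% of log2 changes of 4 in the knockdown design. It recovered 0% of either in the pulldown design. The real pulldown libraries gave 4111 genes in limma, so a common spread does not describe them. At a dispersion of 0.05, 99% or 100% were recovered in both designs. Windows were aligned with Biopython 1.88, free of end-gap cost. All members are named, at most 4 genes per list otherwise (smallest p, or highest CPM where none passed). Members and lists were chosen with earlier results of these data known. CPM is not per length, so levels are compared across libraries, not between genes.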

Additional observations from a re-analysis of the deposited data

How the results depend on the processing

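Of the alternatives planned, those for input and total RNA were not run. In knockdown against control, no Tdpoz gene passed in any setting with all 4 libraries, and the family's median log2 fold change lay between -0.57 and -0.52 there. Leaving out 1 library gave 0 to 6 Tdpoz genes, 0 to 1894 genes over all and family medians of -0.75 to -0.34. The 0 genes called over all (726 at an unadjusted p under 0.05) became 15 with DESeq2 and 2 when the replicate letter was a block. The letters are not stated to mark a shared batch, and same-letter deviations correlated at 0.146 in the knockdown table and -0.0138 in the pulldown table. In His against IgG the block gave 4 Tdpoz genes in place of 3, adding Tdpoz5. There the Tdpoz genes called were 5 with a pseudocount of 0.1 and with DESeq2, 0 with quantile normalization and with edgeR, and 0 to 5 when 1 library was left out; genes over all were 2356 at a mean of at least 5 CPM, 0 with quantile normalization and edgeR (2339 and 4592 unadjusted), and 6 to 7679 when 1 library was left out. Without a His library, members at 0 in IgG could not be tested. The family median of 2.38 (2.99 with members at 0 in IgG set to their lower bound) was 5.40 and 0.98 with pseudocounts of 0.1 and 5, 1.98 with no filter, 1.65 at a mean of at least 5 CPM, -0.16 after quantile normalization, 7.17 in edgeR, 6.49 in DESeq2 and 0.69 to 2.71 when 1 library was left out. Quantile normalization turned 5 of the 8 members negative, among them Tdpoz9-ps1 (-0.21), which had passed. What moved these values, beyond fewer libraries or genes, was not tested.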
